A study of Mus musculus with 8 samples.

Results

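Expression of 9 genes that mark and maintain the pluripotent state was followed in mouse P19 cells depleted of Upf3a. The genes are Pou5f1, Sox2, Nanog, Zfp42, Lin28a, Lin28b, Sall4, Utf1 and L1td1. They were chosen by name, as core factors of embryonal carcinoma cells, out of the 23284 genes in the deposited table. P19 is a mouse embryonal carcinoma line, so 1 line stands for all cells here. One arm (control) received a control siRNA and the other (knockdown) an siRNA against Upf3a, a gene of nonsense-mediated mRNA decay (NMD), which removes mRNAs with a premature stop codon. Both arms were given actinomycin D, which blocks transcription, 24 h after transfection, and RNA was taken at 0, 15, 105 and 225 min. The series asked how transcript stability depends on UPF3A. The labels list 2 cultures per condition, and the table holds 1 value for each of the 8 conditions, so each n counts time points. The p-values rest on how the difference between the arms varied over the times, or on scatter about a line over time. They do not measure the spread between cultures. Whether the times of an arm share a transfection is not stated.

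The core pluripotency network is built on POU5F1 (also called OCT4) and SOX2, which bind DNA together, and on NANOG; they activate one another's genes and those of other stem cell factors. SALL4, ZFP42 (REX1) and UTF1 are further nuclear proteins of this network, and LIN28A and LIN28B are RNA-binding proteins that block maturation of the let-7 microRNAs, which in turn repress Lin28 mRNAs. L1TD1 is an RNA-binding protein derived from a retrotransposon and is abundant in early embryonic cells. Pou5f1 and Nanog are shut off when pluripotent cells differentiate, whereas Sox2 is kept in neural progenitors.

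Levels are FPKM (fragments per kilobase of transcript, divided by library size); they can be compared between genes, and they carry the authors' lower and upper limits, whose level is not stated. FPKM totals ran from 537350 to 923333 per condition with 10832 to 11600 genes at or above 1 FPKM, while read depth is unknown. The targeted gene was lower after knockdown at each time. Upf3a (chr8:13785615-13799193, GRCm38) stood at 13.6, 14.0, 14.0 and 15.0 FPKM in the control arm at 0, 15, 105 and 225 min and at 5.27, 4.52, 4.76 and 4.16 FPKM in the knockdown arm. These values did not overlap, and the limits of both arms were apart at all 4 times. Markers of other cell types were low, with exceptions. Of 12 neural markers, Sox1, Pax6, Neurog1 and Neurog2 were below 1 FPKM in every condition, and of 10 endoderm markers Sox7, Sox17, Pdgfra, Afp and Ttr were. The summed level of the neural list was 76.5 to 95.9 FPKM in the control and 67.5 to 80.1 FPKM in the knockdown arm, most of it from Tubb3, and that of the endoderm list 6.61 to 10.2 and 6.07 to 9.56 FPKM. The mesoderm list summed to 68.4 to 77.9 FPKM in the control and 124 to 136 FPKM in the knockdown arm, most of it from T (brachyury), with Mesp1, Hand1 and Myog below 1 FPKM. The trophectoderm list summed to 65.7 to 69.3 and 85.9 to 91.8 FPKM, with Elf5 and Hand1 below 1 FPKM, and the fibroblast list to 157 to 201 and 165 to 224 FPKM, most of it from Vim.

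P19 cells expressed the members over a wide range of levels. At 0 min in the control arm Pou5f1 was highest with 1490.2 FPKM, and it ranked between 58 and 74 among all genes in the 8 conditions. Lin28a followed with 236 FPKM, Utf1 with 127 FPKM, L1td1 with 90.1 FPKM, Sox2 with 58.3 FPKM, Nanog with 53.4 FPKM, Sall4 with 46.3 FPKM and Lin28b with 31.0 FPKM. Zfp42 was far below these with 1.55 FPKM. In this order the limits of neighbours were apart between Pou5f1 and Lin28a, between Lin28a and Utf1 and between Lin28b and Zfp42, and overlapped from Utf1 down to Lin28b. The authors' upper limit lay 25.2% to 33.4% above the FPKM for the first 8 genes and 43.8% to 83.3% above it for Zfp42, the least precisely measured member. All but Zfp42 had a mean FPKM of 1 or more over the 8 conditions, the minimum for testing, met by 11452 genes; the mean of Zfp42 was 0.929 FPKM, just under it, and no other member was near it.

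**Figure D1:**
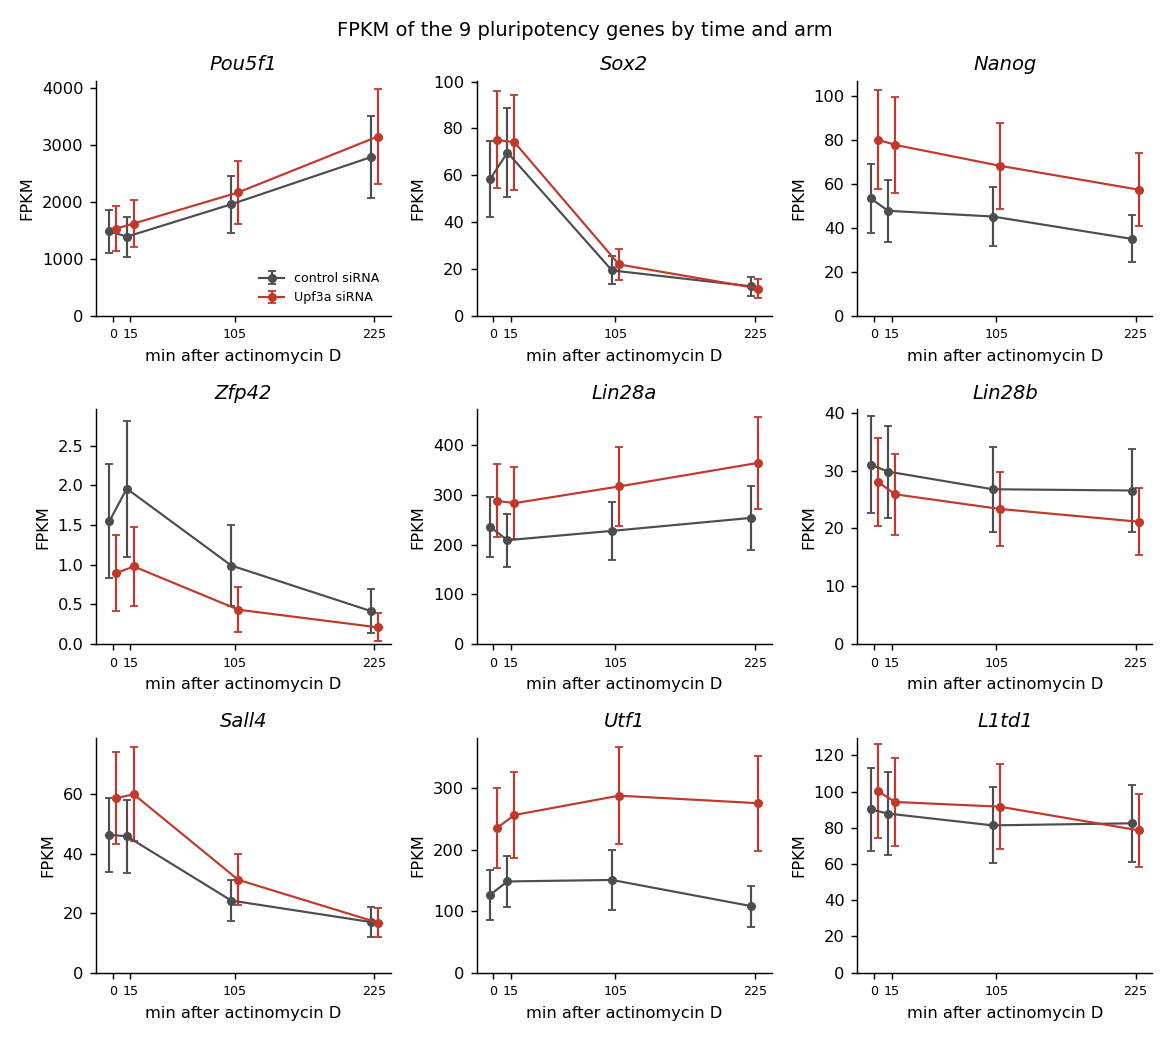
FPKM (vertical axes, each from 0) of the 9 genes against time after actinomycin D in min, for control siRNA (grey) and Upf3a siRNA (red); points are the deposited values, offset sideways by arm, and bars the authors' limits. Pou5f1 stood at 1490.2 FPKM at 0 min and 2790.2 FPKM at 225 min in the control arm, Sox2 and Sall4 dropped with time, and the knockdown values of Nanog, Lin28a and Utf1 all lay above the control values.

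The first comparison asked whether a member's level differed between the arms at matched times. Of the 8 members tested, 5 were higher in the knockdown arm (Utf1, Nanog, Lin28a, Sall4 and Pou5f1), 1 was lower (Lin28b) and 2 did not pass the test (Sox2 and L1td1). Zfp42, outside the test, had its lower value in the knockdown arm at each of the 4 times. Over all 11452 genes 26.1% were called higher and 22.3% lower at a limma adjusted p below 0.05. Of the called genes 53.9% were thus higher, and 75.1% after scaling to ribosomal protein genes. The median difference of the 8 members was 0.20 log2 units, against 0.005 for all genes, whose middle 50% lay between -0.13 and 0.16; the members were chosen with such results known, so this describes them only. Differences are on the log2(FPKM + 1) scale, knockdown minus control, as the mean over 4 times. In bulk RNA, fewer cells that express a gene and less RNA per cell cannot be told apart.

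Utf1, a chromatin-bound factor of pluripotent cells, showed the largest difference of the members. Its level was 127, 148, 151 and 108 FPKM in the control arm at 0, 15, 105 and 225 min and 235, 256, 288 and 275 FPKM in the knockdown arm. Every knockdown value was above every control value, and the authors' limits of the arms were apart at 0, 105 and 225 min and overlapped at 15 min. No other member had limits apart at any time; among all tested genes 2.05% had them apart, knockdown higher, at 1 or more times, 0.908% knockdown lower, and 0.288% knockdown higher at all 4. The arms averaged 133 ± 20.1 and 264 ± 23.0 FPKM (SD, n = 4 time points), a log2 difference of 0.99 (SE 0.087, adjusted p = 2e-04), or 1.98-fold. The linear ratio was 1.86 at 0 min, 1.73 at 15 min, 1.91 at 105 min and 2.55 at 225 min. Utf1 lies at chr7:139943789-139945112 on the plus strand (GRCm38) and its transcript has 2 exons. The 250 bases before its RefSeq start (chr7:139943606-139943855) are shown because this gene moved most; neither an octamer core nor a SOX site was found in its window, so no letter is in capitals.

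Utf1: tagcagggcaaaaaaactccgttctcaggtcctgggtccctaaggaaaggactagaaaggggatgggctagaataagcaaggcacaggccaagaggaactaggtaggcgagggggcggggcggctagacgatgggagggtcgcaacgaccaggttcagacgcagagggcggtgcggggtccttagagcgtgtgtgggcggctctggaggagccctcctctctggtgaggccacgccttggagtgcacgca

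GC boxes (GGGCGG, both strands searched) begin at positions -138, -133, -85 and -56 from the start in this sequence; 35.7% of the 32851 RefSeq promoter windows (GRCm38.p6, 250 bases before to 50 after a start) hold at least 1.

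Nanog, the homeodomain factor that holds cells in the pluripotent state, was also higher at every time. It measured 53.4, 47.7, 45.2 and 34.9 FPKM in the control arm and 80.1, 77.7, 68.3 and 57.3 FPKM in the knockdown arm. The lowest knockdown value, at 225 min, was above the highest control value, at 0 min. The log2 difference was 0.64 (SE 0.044, adjusted p = 9.14e-05), 1.56-fold, and the linear ratio stayed between 1.5 and 1.64 over the 4 times. The effect was above that of 97.3% of tested genes, and that of Utf1 above 99.4%. Nanog lies at chr6:122707489-122714633 on the plus strand. Its promoter and that of Zfp42 are shown because both hold the octamer core TTTGCAT, the binding letters of POU5F1, yet the genes lay on opposite sides of 0 in this comparison; capitals mark the octamer core and the SOX site ACAATG. The Nanog sequence is chr6:122707315-122707564, plus strand, and that of Zfp42 chr8:43307010-43307259, minus strand.

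Nanog: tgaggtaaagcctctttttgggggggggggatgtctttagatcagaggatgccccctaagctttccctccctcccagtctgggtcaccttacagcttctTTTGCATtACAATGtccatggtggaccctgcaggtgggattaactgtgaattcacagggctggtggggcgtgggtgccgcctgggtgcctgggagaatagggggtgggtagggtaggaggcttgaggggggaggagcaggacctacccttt

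Zfp42: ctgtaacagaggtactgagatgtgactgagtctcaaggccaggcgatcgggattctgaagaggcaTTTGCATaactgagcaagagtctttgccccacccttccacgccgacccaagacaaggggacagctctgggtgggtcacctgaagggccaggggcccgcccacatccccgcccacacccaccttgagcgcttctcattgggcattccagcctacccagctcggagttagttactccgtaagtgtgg

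In Nanog the octamer core begins at position -151 and the SOX site at -143 from the start, on the same strand with 1 base between them. Of the RefSeq windows, 4.63% hold an octamer core and 12.6% a SOX site on either strand. A pair on 1 strand with at most 3 bases between them is in 3 windows (0.00913%), of which 2 belong to Nanog and 1 to Acyp1. In Zfp42 the octamer core begins at position -185 and no SOX site was found. Sox2 holds an octamer core on the other strand at position -99 and Lin28a a SOX site on the other strand at -96, while the windows of Pou5f1, Lin28b and L1td1 hold neither. Positions count from the RefSeq start. The Sox2 window (chr3:34649745-34650044) ends before the GENCODE start of that gene (chr3:34650405). Windows were found for 8 of the 9 members, Sall4 not among them. These are matches of letters in a short window, and binding was not measured.

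Zfp42, a zinc finger protein used as a marker of naive pluripotent cells, was lower in the knockdown arm. It measured 1.55, 1.96, 0.990 and 0.418 FPKM in the control arm and 0.896, 0.979, 0.435 and 0.212 FPKM in the knockdown arm, with overlapping limits at each time. The linear ratio was between 0.439 and 0.579. When all genes with a mean above 0 were tested, the log2 difference was -0.43 (SE 0.062, adjusted p = 0.0104). At these levels log2(FPKM + 1) understates a change.

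Lin28a and Lin28b, which encode paralogous proteins, went in opposite directions. Lin28a measured 236, 209, 228 and 254 FPKM in the control arm and 288, 283, 317 and 364 FPKM in the knockdown arm. Every knockdown value exceeded every control value, and the linear ratio was 1.22 at 0 min, 1.36 at 15 min, 1.39 at 105 min and 1.44 at 225 min. The log2 difference was 0.43 (SE 0.051, adjusted p = 0.000576). Lin28b measured 31.0, 29.8, 26.8 and 26.5 FPKM in the control arm and 28.1, 25.9, 23.4 and 21.2 FPKM in the knockdown arm. It was lower at every matched time, but the arms overlapped, since the knockdown value at 0 min exceeded the control values at 105 and 225 min. Its log2 difference was -0.21 (SE 0.046, adjusted p = 0.00801); scaled to ribosomal protein genes it was -0.13 with an adjusted p of 0.155. In FPKM, Lin28a stood at 7.01 to 9.56 times the level of Lin28b in the control arm and at 10.3 to 17.2 times in the knockdown arm, without overlap.

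Both Lin28 mRNAs and Sall4 carry letters complementary to the let-7 seed in their 3' UTR, and these are the members that do. The seed is bases 2 to 8 of the mature microRNA, in capitals in mmu-let-7a-5p (RefSeq, chr13:48538239-48538260), and the matching site CTACCTC is in capitals in 30-base stretches of the 3' UTRs from GENCODE transcripts (GRCm38).

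mmu-let-7a-5p: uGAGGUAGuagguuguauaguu

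Lin28a site 1 (chr4:134005178-134005207, minus strand): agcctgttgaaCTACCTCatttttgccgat

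Lin28a site 2 (chr4:134004540-134004569, minus strand): tcgccacaaacCTACCTCactgtgttgaaa

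Lin28b site 1 (chr10:45381011-45381040, minus strand): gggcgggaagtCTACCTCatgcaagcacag

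Sall4 site (chr2:168748929-168748958, minus strand): ctttaatttatCTACCTCaattatctttat

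Lin28a holds 2 such sites, Lin28b 4 and Sall4 1, and the other 6 members none; 10.5% of the tested genes with a GENCODE coding transcript (10096 genes, 88.2% of those tested) hold at least 1. The 3 genes differed in direction between the arms, with Lin28a and Sall4 called higher and Lin28b called lower. Mature let-7 was not measured in these files.

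Sall4 and Pou5f1 passed the test by a small margin. Sall4, a zinc finger factor that binds with POU5F1 and NANOG, measured 46.3, 45.8, 24.2 and 17.0 FPKM in the control arm and 58.7, 59.9, 31.2 and 16.8 FPKM in the knockdown arm. It was higher at the first 3 times and level with the control at 225 min. Its log2 difference was 0.26 (SE 0.071, adjusted p = 0.0194), and the adjusted p was 0.0756 without 0 min, 0.0741 without 15 min, 0.0774 without 105 min and 0.0662 with no filter on low genes. Pou5f1 measured 1490.2, 1391.0, 1962.0 and 2790.2 FPKM in the control arm and 1534.2, 1622.9, 2171.1 and 3153.3 FPKM in the knockdown arm. It was higher at every matched time, by 1.03-fold at 0 min and up to 1.17-fold at 15 min. Its log2 difference was 0.15 (SE 0.046, adjusted p = 0.0329); the adjusted p was 0.0559 with median-of-ratios scaling, 0.139 without 15 min, 0.092 without 105 min and 0.0797 without 225 min. Scaled to ribosomal protein genes the difference was 0.23.

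Sox2, the partner of POU5F1 on DNA, and L1td1 did not pass. Sox2 measured 58.3, 69.7, 19.4 and 12.6 FPKM in the control arm and 75.1, 74.1, 21.9 and 11.6 FPKM in the knockdown arm. It was higher at 3 times and lower at 225 min, a mean log2 difference of 0.13 (SE 0.073, adjusted p = 0.18). L1td1 measured 90.1, 87.9, 81.4 and 82.5 FPKM in the control arm and 100.4, 94.3, 91.7 and 78.6 FPKM in the knockdown arm, again higher at 3 times and lower at 225 min. Its log2 difference was 0.09 (SE 0.052, adjusted p = 0.196). Without 225 min both passed, Sox2 with 0.21 (adjusted p = 0.043) and L1td1 with 0.14 (adjusted p = 0.0444).

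**Figure D2:**
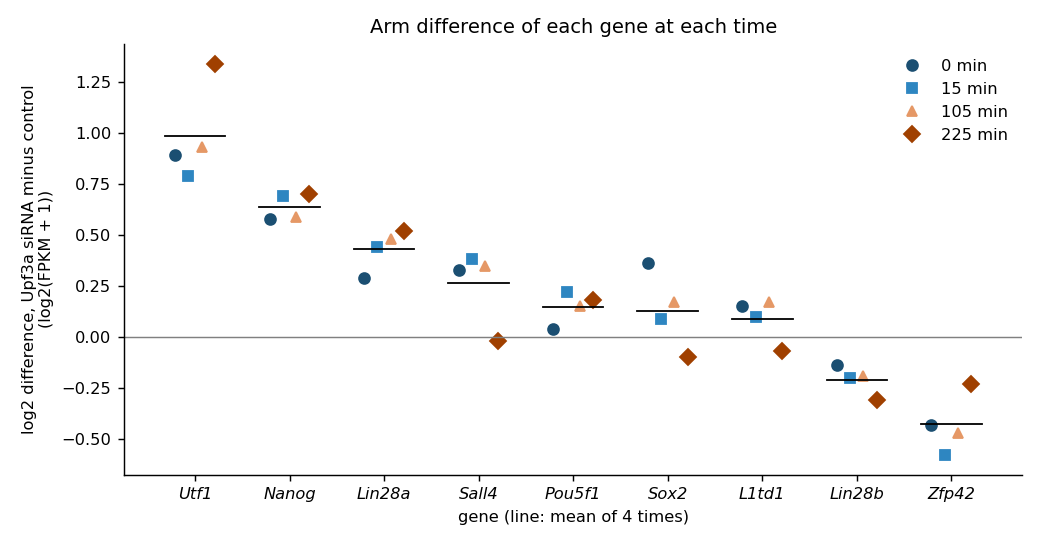
Difference in log2(FPKM + 1), knockdown minus control (vertical axis), for each gene (horizontal axis) at 0, 15, 105 and 225 min (symbols), with the mean of the 4 times as a line and 0 in grey. Utf1, Nanog, Lin28a and Pou5f1 were above 0 at all 4 times, Lin28b and Zfp42 below 0 at all 4, and Sall4, Sox2 and L1td1 below 0 at 225 min only.

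Of the tested members, Pou5f1, Nanog, Lin28a and Utf1 had the higher value in the knockdown arm at all 4 times and Lin28b the lower one at all 4, against 31.8% and 28.6% of all tested genes. Utf1, Nanog and Lin28a kept their call in each of the 12 alternative settings run. Together the 9 members took 0.37% to 0.379% of total FPKM in the control arm and 0.431% to 0.455% in the knockdown arm, most of it Pou5f1.

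The second comparison asked whether a member's level rose or fell after transcription was blocked. Since FPKM has no outside standard, a slope is relative to the other mRNAs that remain. FPKM totals were higher at 225 than at 0 min in both arms. A rise in FPKM is thus not by itself a rise in share of total FPKM or a slower loss than the bulk. Slopes are in log2 units of FPKM + 1 per hour, with both arms in 1 fit. That fit counts the arms at each time as separate points. A departure from a line that both arms share can therefore make its SE and p too small. Of the 8 members tested, 5 fell (Sox2, Sall4, Nanog, Lin28b and L1td1), 2 rose (Pou5f1 and Lin28a; with FPKM scaled to ribosomal protein genes neither was called rising and both slopes were below 0) and Utf1 did not pass. Over all tested genes 42.7% were called rising and 38.6% falling, so most genes were called in one direction or the other. Scaled to ribosomal protein genes, 0.4% of all called slopes were rising instead of 52.5%, and the median slope of all genes moved from 0.014 to -0.24. The members' median slope was -0.07 log2 units per hour, against 0.014 for all genes.

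Sox2 was lost fastest. At 225 min 21.5% of its 0 min level remained in the control and 15.5% in the knockdown arm, and most of the drop lay between 15 and 105 min. The slope was -0.69 (SE 0.07, adjusted p = 3.48e-05), lower than that of all but 0.5% of tested genes, a relative half-life of 1.46 h (1.32 to 1.63 h at 1 SE either side). Of the tested members Sall4 came next, with 36.8% and 28.7% remaining. Its slope was -0.44 (SE 0.032, adjusted p = 5.76e-06) and its relative half-life 2.28 h (2.12 to 2.46 h). Zfp42, below the filter for testing, had less left than Sall4, 27.0% and 23.7% of its 0 min level. Its slope was -0.23 (SE 0.027, adjusted p = 0.000449) when all genes with a mean above 0 were tested. At its level log2(FPKM + 1) understates a change, so this slope cannot be ranked against those of Sox2 and Sall4. For these 3 genes the limits at 225 min lay below those at 0 min in both arms, as for 17.1% of all tested genes. Nanog fell more slowly, to 65.4% and 71.5%, with a slope of -0.13 (SE 0.015, adjusted p = 6.13e-05) and a relative half-life of 7.46 h (6.71 to 8.40 h). These slopes and half-lives depend on the scaling and the times used, and the ranges at 1 SE hold for the main fit only. The slope of Sox2 was -0.96 scaled to ribosomal protein genes and -1.02 without 225 min. That of Nanog was -0.22 with quantile normalization and -0.42 scaled to ribosomal protein genes, and that of Sall4 -0.72 scaled to ribosomal protein genes. Sox2, Sall4, Nanog and Lin28b were called falling in each of the 12 alternatives.

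Lin28b and L1td1 also fell, by an amount that depended on the scaling. Lin28b kept 85.7% of its 0 min level in the control and 75.3% in the knockdown arm, with a slope of -0.08 (SE 0.017, adjusted p = 0.00288) that was -0.12 without 225 min and -0.36 scaled to ribosomal protein genes. L1td1 kept 91.5% and 78.3%, with a slope of -0.06 (SE 0.017, adjusted p = 0.0118), and its adjusted p was 0.0803 without 0 min and 0.0836 without 225 min. The slope of L1td1 was -0.19 with quantile normalization and -0.35 scaled to ribosomal protein genes. Utf1 ended at 85.5% in the control and 117% in the knockdown arm, with a slope of -0.01 (SE 0.039, adjusted p = 0.756); its values at 225 min decided the sign, and without them the slope was 0.12 (adjusted p = 0.0378), while quantile normalization gave -0.18 (adjusted p = 0.00211) and scaling to ribosomal protein genes -0.31 (adjusted p = 0.000137).

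Pou5f1 mRNA, the most abundant of the members, gained in share of total FPKM over the time course. It reached 187% of its 0 min level in the control and 206% in the knockdown arm at 225 min, and its limits at 225 min lay above those at 0 min in both arms, as for 2.97% of all tested genes. The slope was 0.27 (SE 0.016, adjusted p = 2.42e-06), above that of 97.4% of genes; it was 0.001 (adjusted p = 0.958) with quantile normalization and -0.03 scaled to ribosomal protein genes. Pou5f1 made up 0.265% of total FPKM at 0 min and 0.317% at 225 min in the control arm, and 0.285% and 0.342% in the knockdown arm. FPKM totals rose over the same times, from 562848 to 880304 in the control and from 537437 to 923333 in the knockdown arm. Pou5f1 thus rose more in FPKM than in share of the total. What raised the totals was not tested. Lin28a ended at 108% and 126%, with a slope of 0.07 (SE 0.019, adjusted p = 0.00693) that turned to -0.13 with quantile normalization and -0.22 with scaling to ribosomal protein genes. Its adjusted p was 0.051 without 15 min and 0.32 without 225 min. The totals rose by more than Lin28a did, so its share of total FPKM was lower at 225 than at 0 min in both arms.

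**Figure D3:**
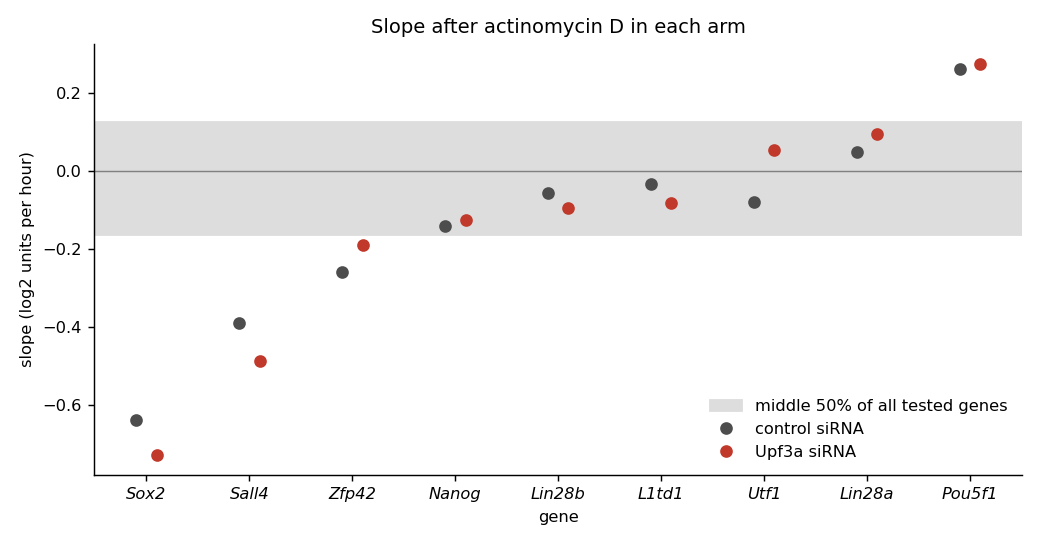
Slope of log2(FPKM + 1) per hour after actinomycin D (vertical axis) for each gene (horizontal axis), control siRNA in grey and Upf3a siRNA in red, with the middle 50% of all tested genes as a grey band (-0.16 to 0.13 log2 units per hour). Sox2, Sall4 and Zfp42 lay below the band in both arms and Pou5f1 above it, and Utf1 had slopes of opposite sign in the arms. Scaled to ribosomal protein genes the slopes of Pou5f1 and Lin28a in both arms together were below 0.

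The transcripts differ in their 3' UTRs, which hold many of the signals for mRNA decay. The 3' UTR of Pou5f1 is 221 bases and that of Utf1 122 bases, while those of Sox2 (1086 bases) and Nanog (1078 bases) are near the median of tested genes (1146 bases) and that of Sall4 (1697 bases) is longer. Lin28a (2775 bases) and Lin28b (4445 bases) have the longest. The AU-rich pentamer ATTTA, a common core of destabilizing elements, occurs 4 times in Sox2, 3 times in Nanog, 5 times in Lin28a, 10 times in Lin28b and once each in Sall4 and L1td1. It is not found in Pou5f1, Zfp42 or Utf1; 69.5% of tested genes have at least 1, with a median of 2. The Pumilio element TGTANATA is in Sox2, Lin28a and Lin28b, and in 27.3% of tested genes. These 3' UTRs are those of GENCODE transcripts, which can differ from the transcripts measured. The Nanog locus given with the deposited values ends at chr6:122713778, before the GENCODE end at 122714633. The last pentamer of Nanog (in chr6:122714074-122714103) lies beyond it. Whether these letters bear on the slopes was not tested. A stretch of Sox2 with 1 pentamer and a stretch of Nanog with 2 overlapping ones are shown, pentamers in capitals, as the falling member with the most negative slope and the falling member that was higher after knockdown at every time.

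Sox2 (chr3:34651823-34651852, plus strand): ttttgtacagtATTTAtcgagataaacatg

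Nanog (chr6:122713627-122713656, plus strand): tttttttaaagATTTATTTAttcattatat

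The third comparison asked whether the slope differed between the arms, the readout closest to the aim of the series. None of the 8 members passed: over all genes 0.00873% (1 gene) had a higher slope in the knockdown arm and 0.0% a lower one in limma at an adjusted p below 0.05. At an unadjusted p below 0.05 there were 3 of the 8 members and 762 of the 11452 genes. With a trended and robust fit no member passed and 3 genes were called in each direction. Utf1 had the largest difference, from -0.08 log2 units per hour in the control to 0.05 in the knockdown arm, a difference of 0.13 (SE 0.034, adjusted p = 0.647). Sall4 had -0.39 and -0.49, a difference of -0.10 (SE 0.033, adjusted p = 0.721). Sox2 had -0.64 and -0.73, a difference of -0.09 (SE 0.037, adjusted p = 0.741). For the other 5 the difference lay between -0.05 (L1td1) and 0.05 (Lin28a), with SE of 0.028 to 0.032. The fit has 2 residual degrees of freedom, and a p that misses the threshold does not show equal decay in the arms.

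Members were compared with each other over the 8 conditions, which share libraries, times and arms, so a correlation describes these libraries only. Sox2 and Sall4 had nearly the same course (Pearson r = 0.98), and Sox2 ran opposite to Pou5f1 (r = -0.94). Utf1 went with Nanog (r = 0.83) and with Lin28a (r = 0.80), and Lin28a ran opposite to Lin28b (r = -0.86). Lin28b went with Zfp42 (r = 0.88), the other gene with lower values after knockdown. Among 7512 other genes whose mean was at least 5 FPKM, without predicted genes, clones, small RNAs and pseudogenes, those with the highest r were Ech1, Ccz1 and Psme1 (each 0.998) for Pou5f1, Nck2 and Map3k1 (0.998) and Rlim (0.997) for Sox2, and Hif1an (0.999), Trim71 (0.998) and Gse1 (0.997) for Sall4. For Nanog they were Ankle2 (0.998), Polr3e (0.996) and Fgf5 (0.994), for Lin28a Dlat (0.998), Tmem216 and Ddx5 (0.995), and for Utf1 Dmap1 (0.988), Mrpl38 (0.985) and Gorasp2 (0.984). For Lin28b they were Pcmtd2 (0.983), Prosc (0.981) and Tollip (0.977), for Zfp42 Zfp341 (0.981), Fut8 (0.979) and Pds5b (0.978), and for L1td1 Fryl (0.956), Pnn and Cdk6 (0.953). With 7512 genes searched over 8 points, every member had partners at 0.953 or more.

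Other regulators of pluripotency were taken as a list of 36 genes. Klf4, Esrrb, Nr5a2, Prdm14 and Tcl1, factors of the naive state, were below 1 FPKM in every condition. The other 31 genes had a mean of 1 FPKM or more and were tested, so these 5 do not stand for the list. In the arm comparison 14 were higher in the knockdown arm, 6 lower and 11 did not pass, with a median of 0.08 log2 units; over all tested genes 26.1% were higher and 22.3% lower, and the share of the list that was lower was near the latter. The list summed to 1021 to 1083 FPKM in the control and 1244 to 1293 FPKM in the knockdown arm. Tdgf1, the co-receptor of NODAL, was at 49.4 FPKM at 0 min and 49.3 FPKM at 225 min in the control arm and at 102 and 112 FPKM in the knockdown arm, a log2 difference of 1.11 (SE 0.043, adjusted p = 4.74e-05). Nacc1 (0.46), a partner of NANOG, and Eras (0.45), a Ras protein of embryonic stem cells, were higher, and Spp1 (-0.46), osteopontin, was lower. Over time 16 of the 31 fell and 7 rose, where 38.6% of all tested genes fell and 42.7% rose; Il6st, the receptor chain gp130, had a slope of -0.30.

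**Figure D4:**
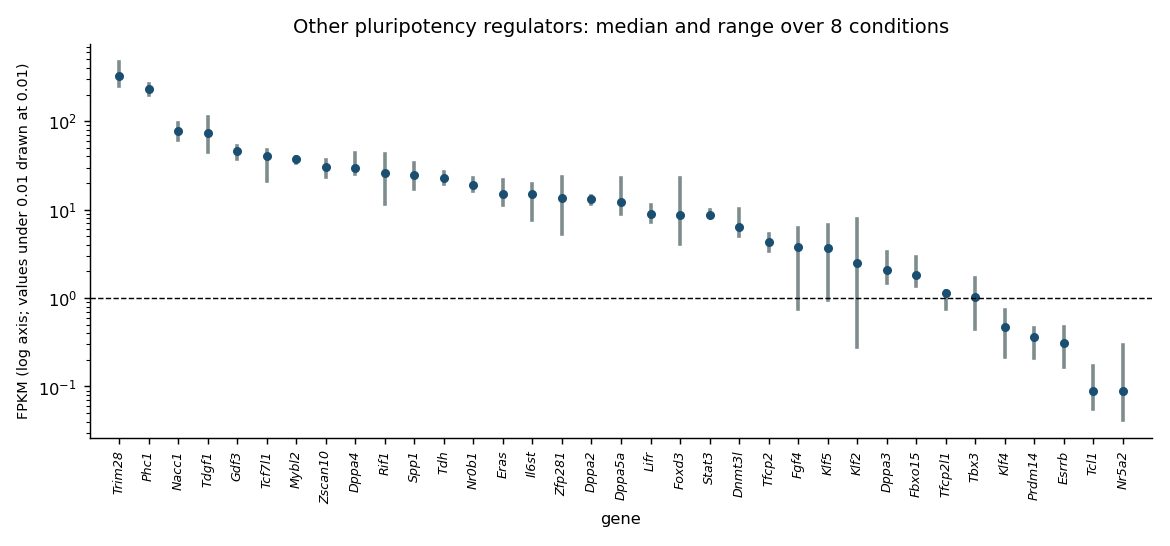
FPKM on a log axis (vertical) of 35 of the 36 other pluripotency regulators (horizontal axis), with the median over the 8 conditions as a point, the range as a bar and a dashed line at 1 FPKM. The 5 genes at the right, Klf4, Prdm14, Esrrb, Tcl1 and Nr5a2, stayed below 1 FPKM in all 8 conditions.

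All 18 genes of the LIN28 and let-7 axis were tested: 11 were higher in the knockdown arm, 2 lower and 5 did not pass (median 0.17), beside 26.1% and 22.3% over all tested genes. Mycn (0.69) and Myc (0.58), let-7 targets, and Dgcr8 (0.50), of the microprocessor that starts microRNA maturation, were higher. Over time 9 fell and 8 rose, beside 38.6% and 42.7% of all tested genes; the slope of Mycn was -0.77, and that of Zcchc11, the uridylyl transferase that LIN28 recruits to let-7 precursors, -0.32. Of 12 relatives of the members' families 11 were tested, and 4 were higher, none lower and 7 did not pass (median 0.07; 26.1% and 22.3% over all tested genes). Sall1 (0.40), Sox15 (0.28), Sall3 (0.14) and Csda (0.14), which encodes a cold-shock domain protein as Lin28a does, were the 4. Of these relatives 9 fell over time and 1 rose (38.6% and 42.7% over all tested genes), with slopes of -0.40 for Sall2 and -0.45 for Pou2f1.

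Genes of the primed epiblast, the later pluripotent state, were called higher in 7 of 10 cases, with none lower and a median of 0.40. For this and the following lists, the shares over all tested genes are 26.1% higher and 22.3% lower. Fgf5, a growth factor that marks this state, went from 4.15 FPKM at 0 min in the control to 11.9 FPKM in the knockdown arm, a log2 difference over the 4 times of 1.39 (SE 0.066, adjusted p = 4.74e-05). T (0.87), Lefty2 (0.73) and Dnmt3b (0.65) were higher as well. Of the mesoderm list 4 genes were tested and 3 were higher (T, Eomes and Mixl1), and of the trophectoderm list 5 were tested and 2 were higher (Krt8 and Eomes). Of 7 neural genes tested, Elavl3 (-0.80), Ncam1 (-0.22) and Tubb3 (-0.19) were lower and none higher. None of 3 endoderm genes passed, and of 6 fibroblast genes Col1a2 (-0.54) was lower. These lists moved between the same arms as the members did, and their part in the members' differences was not tested.

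Some members share their locus. Sox2 (chr3:34650405-34652461), a single-exon gene, lies inside the long noncoding gene Sox2ot, with which and with Mir1897 it shares a locus in the table; Sox2ot was at 0.0271 to 0.115 FPKM in the 8 conditions. Exons of Pou5f1 (chr17:35506018-35510772), Lin28a (chr4:134003330-134018841) and Sall4 (chr2:168748332-168767943) overlap the predicted genes Gm19553, Gm13061 and Gm14261 on the other strand. The labels do not state whether the libraries keep strand, so reads of such overlaps cannot be told apart.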

How the data were processed

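Per the submitters' processing notes, the authors aligned reads to mm10 with TopHat2 and estimated expression with Cufflinks. Tool versions and gene annotation are not given in the sources used here. Trizol was used to extract total RNA, per the labels' protocols. The deposited values are FPKM with a lower and an upper limit, 1 per gene and condition, per the file headers; the 2 cultures of a condition were combined by the authors, in a way not stated. FPKM are not counts, and depth is unknown.

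Conditions were matched to columns by arm and time. R 4.3.3 with limma 3.58.1 was run on log2(FPKM + 1) for 11452 genes (mean FPKM at least 1), with Benjamini-Hochberg adjusted p below 0.05 over all of them, two-sided. The arm difference had time as a factor (3 residual degrees of freedom), the slope had hours and arm (5), and the slope difference had arm by hours with time as a factor (2). Named genes are the 9 members, Upf3a, up to 4 genes of each list by moderated t of the arm difference and 2 by that of the slope, and the 3 genes closest to each member by Pearson r; part of these is printed, and some genes of the lists are counted but not reported here by name. Members and lists were chosen with earlier results of these data known. Fits were tested on simulated data. Coordinates, 3' UTRs and their sequence came from GENCODE vM21 (GRCm38), promoters and the microRNA from RefSeq (GRCm38.p6). The alternatives were pseudocounts of 0.1 and 5, no filter, a mean FPKM of 5 or more, 3 scalings (median of ratios, quantile, 78 ribosomal protein genes), a trended and robust fit and leaving out each time.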

Additional observations from a re-analysis of the deposited data

How the results depend on the processing

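There were 12 alternatives. The number of members called higher in the knockdown arm was 3 to 6 when each time was left out, and the number lower was 2 with no filter (Zfp42 then tested) and 0 with scaling to ribosomal protein genes. Members called rising numbered 0 with quantile normalization and 0 with scaling to ribosomal protein genes, and 1 to 2 with a time left out. Over all genes, 1656 were lower in the knockdown arm and 2685 had a falling slope at a mean FPKM of 5 or more, from fewer genes tested. Scaling to ribosomal protein genes gave 3839 higher and 1272 lower (75.1% higher, against 53.9%), and 46 rising against 10693 falling. Slope differences were called higher in 0 genes with no filter, 3 with the trended and robust fit and 2 to 10 with a time left out, and lower in 3 and in 0 to 12. Values that changed sign were the slopes of Pou5f1 (-0.026) and Lin28a (-0.221) with scaling to ribosomal protein genes, of Lin28a (-0.127) with quantile normalization and of Utf1 with a time left out (-0.054 to 0.123, the highest without 225 min). Slope differences that changed sign were those of Pou5f1 and Nanog with quantile normalization (-0.023 and -0.035), with scaling to ribosomal protein genes (-0.023 and -0.024) and with a time left out (-0.012 to 0.035 and -0.021 to 0.033), of Lin28a with quantile normalization (-0.003) and of L1td1 with a time left out (-0.061 to 0.023). The cause of these changes was not tested. For the 8 tested members, 85 of 96 arm differences, 85 of 96 slopes and 88 of 96 slope differences kept their direction and their side of the threshold. Depth is unknown, and the width of the authors' limits bounds the precision of each value.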
